A study of Mus musculus with 18 samples.

Results

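Itaconate is made by a branch that leaves the tricarboxylic acid (TCA) cycle at cis-aconitate, and 9 genes of the branch and the cycle were followed by RNA-seq in mouse liver and in the RAW264.7 macrophage line, under lipopolysaccharide (LPS) alone or together with moringa isothiocyanate-1 (MIC-1). The members were taken by symbol, and all 9 were found among the 21441 genes of each table: Irg1 (the older name of Acod1), Cs, Idh1, Idh2, Idh3a, Ogdh, Suclg2, Fh1 and Mdh2. All 9 also had a mean FPKM (fragments scaled for transcript length and library size) above 1 over the libraries of each table, as did 9905 genes in macrophages and 10147 in liver.

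RAW264.7 cells are an established murine line that behaves like macrophages. LPS, from the outer membrane of Gram-negative bacteria, activates them. MIC-1 is an isothiocyanate made from the seeds of the moringa tree. Each table holds 3 control, 3 LPS and 3 LPS+MIC-1 libraries, 18 in all, and none of MIC-1 without LPS. Liver came from wild type C57BL/6 male mice. By the study's account, gavage over 3 days gave the LPS+MIC-1 mice MIC-1 at 80 mg/kg and the other mice vehicle. Both LPS groups then had 10 mg/kg LPS into the peritoneum and controls saline, and liver was taken 16 h later. The 9 livers came from 9 mice, 3 to a treatment. The cultures were controls (named saline controls in the series' design), LPS-treated, or treated with LPS and 10 µM MIC-1, although the sample labels repeat the doses of the mouse experiment for them, and the LPS concentration of the sequenced cultures is not given in the sources used here. Nothing says that the macrophage libraries of a treatment came from separate cultures, so p-values there measure the spread between these libraries, which may be technical. Libraries are numbered within a treatment by their order in the table.

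In the TCA cycle, acetyl groups from pyruvate and fatty acids join oxaloacetate as citrate and are oxidized stepwise in the mitochondrion, which feeds electrons to the respiratory chain. Macrophages activated by LPS are known for a rewired cycle: Irg1 is induced, and its enzyme, cis-aconitate decarboxylase, turns cis-aconitate into itaconate, which inhibits succinate dehydrogenase and modifies cysteines of proteins such as Keap1. In liver most of the mass is hepatocytes, which use the cycle for gluconeogenesis, ureagenesis and lipid synthesis, and Irg1 is a gene of myeloid cells. In bulk tissue fewer cells of a type and less RNA per cell cannot be told apart.

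The macrophage library LPS 2 stood with the controls. Over genes with 500 to 2000 estimated reads, its squared difference from control library 2 was 1.85 times that expected from sampling, against 195 and 197 from LPS libraries 1 and 3. Libraries 1 and 3 of each macrophage treatment were as close to each other, at 1.71, 2.14 and 1.47 times sampling, while library 2 was 8.35 to 9.95 times from them among controls and 13.5 to 13.7 among LPS+MIC-1 libraries. Macrophage results are therefore given with and without LPS library 2. The depth, estimated from the steps between low FPKM values, was 13.6 to 17.4 M reads in macrophages. In liver it was 8.31 M in control library 1, 3.64 and 3.56 M in controls 2 and 3, and 9.62 to 15.1 M in the other libraries. Control liver 1 also stood apart, at 63.7 and 87.4 times sampling from controls 2 and 3, against 6.25 between those, and so did LPS liver 2, at 101 and 102 times from LPS livers 1 and 3 (7.53 between those), and LPS+MIC-1 liver 2, at 49.8 and 51.1 times from the other LPS+MIC-1 livers (2.32 between those). The labelled tissues were checked on markers: the summed FPKM of 5 hepatocyte genes was 34542 to 80657 in liver and at most 13.5 in macrophages, where Lyz2 was at 8726 to 10746 FPKM. Of the 5 listed Kupffer cell genes, Clec4f, Vsig4, Timd4 and Marco were at or near 0 in the RAW264.7 libraries. Cd5l was not: it was at 4.47 to 5.46 FPKM in control macrophages and at most 4.84 with LPS. With LPS+MIC-1 it was at 0.799 to 1.36 FPKM, and in liver at 4.16 to 13.5. The summed FPKM of 8 LPS response genes was 416 to 772 in control macrophages, 29006 and 29814 in LPS libraries 1 and 3, 788 in LPS library 2 and 4802 to 6922 with LPS+MIC-1. Ccl5 made up most of the sum in LPS libraries 1 and 3 (24673 and 25371 FPKM) and was at 219 to 464 with LPS+MIC-1. Not all 8 were raised in LPS libraries 1 and 3. Cxcl10 was lower there (25.1 and 25.7 FPKM) than in controls (64.3 to 70.1), and Tnf (238 in both) lay within the control range (163 to 330). Against LPS libraries 1 and 3, every LPS+MIC-1 library was lower in Ccl5, Nos2, Saa3 and Cxcl10. All were higher in Tnf, Ptgs2 and Lcn2, and Il1b lay on both sides. In liver, where 5 of the 8 genes were tested, the sum was 113 to 6136 in controls. It was 47015 to 67782 with LPS and 76259 to 88612 with LPS+MIC-1. Control liver 2 had the highest sum of the controls, with Saa3 at 4075 and Lcn2 at 2037 FPKM.

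Irg1 was the member that moved most in macrophages, and LPS+MIC-1 gave its highest level. It lies on chromosome 14 at 103446194 to 103455790, plus strand (mm9, GENCODE M1), and overlaps no other annotated gene. In the control macrophages it was at 82.6, 266 and 84.7 FPKM. The LPS libraries held 734, 256 and 763 FPKM, so LPS library 2 lay within the range of the controls and the other LPS libraries far above them. The LPS+MIC-1 libraries held 2157, 1623 and 2184 FPKM, all above every LPS library, and the mean of 1988 ± 316 (SD, n = 3) was the highest of the 9 members in that group.

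Among 9 macrophage libraries, LPS against control gave a log2 fold change of 2.08 (SE 0.55, adjusted p = 0.0777; limma with Benjamini-Hochberg adjustment over all genes tested, as for every adjusted p here). Without LPS library 2 Irg1 was higher with LPS, by 2.60 (SE 0.47, adjusted p = 0.00131), a fold of 6.06. Irg1 rose with LPS+MIC-1 against LPS by a log2 of 1.91 (SE 0.55, adjusted p = 0.0424), or 3.76-fold, and by 1.40 (SE 0.47, adjusted p = 0.0294) without LPS library 2. The call was lost in 10 of its 16 alternatives of processing or libraries, with adjusted p from 0.00897 to 0.327, among them leaving out any library except control 2 and LPS 2 (0.0638 to 0.124). Against control, LPS+MIC-1 was 16.0-fold higher (log2 4.0, SE 0.55, adjusted p = 0.00265).

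In liver Irg1 was low and took another course. The control livers held 0.686, 2.16 and 2.26 FPKM, which stand for an estimated 17.3, 30.5 and 32.6 reads. The LPS livers held 7.0, 6.41 and 7.31 FPKM, all above the controls, and the gene rose by a log2 of 1.85 (SE 0.39, adjusted p = 0.0104), or 3.59-fold. The LPS+MIC-1 livers held 2.33, 4.11 and 1.53 FPKM, below every LPS liver and overlapping the controls. The difference from LPS was -1.31 (SE 0.39, unadjusted p = 0.00919), which did not pass the adjustment (adjusted p = 0.997). An exact two-sided permutation test of the 3 against 3 livers gave p = 0.1, the smallest it allows. So the ranges of LPS and LPS+MIC-1 did not overlap in either tissue, with LPS+MIC-1 above in macrophages and below in liver.

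Markers of other cells also moved with LPS in liver, some up and some down. The summed FPKM given below overlapped between LPS and LPS+MIC-1 livers. Of 10 neutrophil genes 9 were in the table and 6 were tested. Their summed FPKM was 36.8 to 52.3 in control livers and 347 to 444 with LPS. With LPS+MIC-1 it was 189, 202 and 458, the last in liver 2, so the overlap with LPS rested on that liver. S100a8, S100a9, Ngp, Camp and Retnlg rose with LPS and Cxcr2 fell. Of the Kupffer cell genes Clec4f and Vsig4 fell with LPS and Marco rose. The summed FPKM of the 5 macrophage genes in the table was 17.8 to 35.5 in controls, 43.2 to 56.0 with LPS, then 29.3 to 70.3 with LPS+MIC-1. Itgam rose among these, and Csf1r did not pass the test (log2 0.20, adjusted p = 0.615). Endothelial genes summed to 19.1 to 21.3 FPKM in controls, 32.4 to 43.9 with LPS, then 27.8 to 41.9 with LPS+MIC-1, and stellate genes to 113 to 226, 101 to 135 and 65.1 to 127. The T cell gene Cd3d and the B cell gene Cd79a fell with LPS. The part of these cells in the Irg1 values was not tested.

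The promoter of Irg1 is shown because it has the lowest GC share of the members' windows, 44.4%, and Mdh2, the cycle member with the highest mean in control macrophages, is set beside it. Of the 9 members 8 matched a RefSeq entry (GRCm38.p6), Idh3a being the other member. The 250 bases before the start run 5′ to 3′, with CG dinucleotides in capitals, from chr14:103046762-103047011 (plus strand) for Irg1 and chr5:135778399-135778648 (plus strand) for Mdh2.
Irg1: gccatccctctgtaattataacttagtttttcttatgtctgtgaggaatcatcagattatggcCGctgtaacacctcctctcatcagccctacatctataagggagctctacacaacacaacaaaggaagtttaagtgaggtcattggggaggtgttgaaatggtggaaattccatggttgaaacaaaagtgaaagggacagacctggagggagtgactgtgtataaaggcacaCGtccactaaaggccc
Mdh2: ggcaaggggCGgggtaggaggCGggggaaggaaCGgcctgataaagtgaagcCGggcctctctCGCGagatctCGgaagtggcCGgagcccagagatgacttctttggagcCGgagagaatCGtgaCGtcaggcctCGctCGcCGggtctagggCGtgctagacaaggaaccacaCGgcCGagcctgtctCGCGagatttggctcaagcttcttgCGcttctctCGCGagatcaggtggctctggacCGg
The window of Irg1 holds 2 CG dinucleotides and that of Mdh2 holds 23. The ratio of observed to expected CG was 0.163 for Irg1, the 24.4th percentile of 32851 promoter windows, and 0.951 for Mdh2, the 91.6th percentile, against a median of 0.373. A TATA box (TATAAA on either strand) starts 28 bases before the start of Irg1 and is in 12.4% of all windows, and no other member's window holds one. The GC box (GGGCGG) is in 32.7% of all windows, in none of Irg1 and in at least 1 listed start of each of the 7 cycle members with an entry. The κB consensus, found in 7.25% of windows, matched in Idh2, Suclg2 and 1 of 6 Ogdh starts, and the interferon-stimulated response element (GAAANNGAAA, 2.98%) in Suclg2. The antioxidant response element (TGACNNNGC, 10.2%), the AP-1 site (TGANTCA, 6.75%) and the NRF1 site (GCGCANGCGC, 3.74%) matched in no member. The motifs were sought on both strands, the TATA box after the Irg1 window had been seen, and a match is a description of these letters only.

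**Figure D1:**
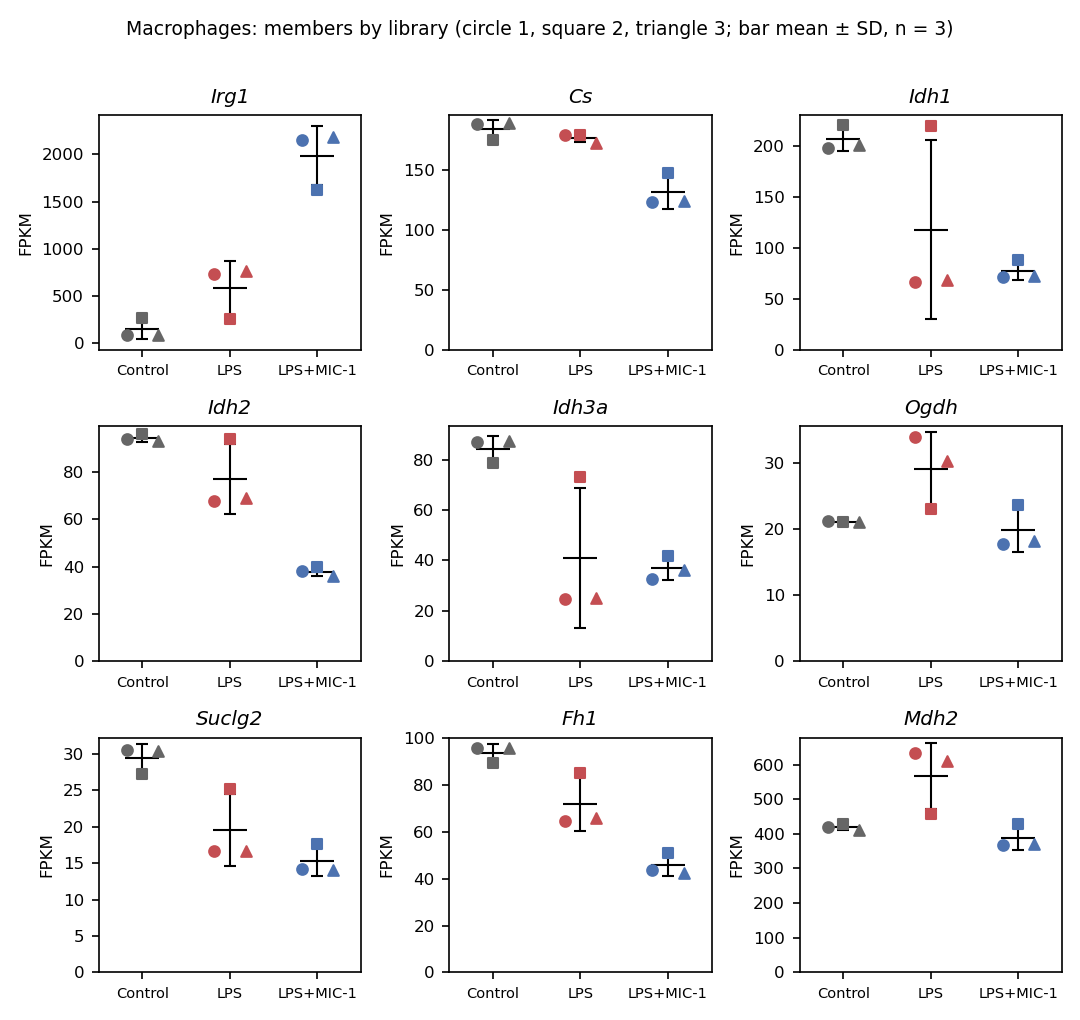
FPKM of the 9 members in each macrophage library by treatment, with circles, squares and triangles for libraries 1, 2 and 3 and bars for the mean ± SD (n = 3). LPS library 2 (256 FPKM of Irg1) sits with the controls for most members, and LPS+MIC-1 gives the highest Irg1 (1623 to 2184 FPKM).

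Citrate synthase, encoded by Cs (chromosome 10, with a U8 snoRNA annotated within it on the same strand), starts the cycle. In macrophages it held 189, 176 and 189 FPKM in controls, 179, 179 and 173 with LPS, then 123, 148 and 125 with LPS+MIC-1. The LPS libraries, library 2 included, lay in or just below the control range, and all LPS+MIC-1 libraries lay below both. Cs fell by 0.43 on the log2 scale against LPS (SE 0.11, adjusted p = 0.0296) and by 0.49 against control (SE 0.11, adjusted p = 0.0164). The change against LPS depended on the scaling, and was 0.064 with every library set to the same FPKM sum. It was lost without library 1 or 3 of any treatment (adjusted p 0.0625 to 0.117). The change against control was lost without library 1 or 3 of controls or of LPS+MIC-1 (0.0755 to 0.078) and at the same sum (-0.68, adjusted p = 0.105). In liver Cs was at 62.4, 45.4 and 51.4 FPKM in controls, 31.2, 30.8 and 29.7 with LPS, then 31.0, 29.4 and 27.8 with LPS+MIC-1. It fell with LPS to 0.585 of control (log2 -0.77, SE 0.16, adjusted p = 0.0105), lay near this level with LPS+MIC-1 (log2 difference from LPS -0.055, SE 0.16, adjusted p = 0.997), and kept both calls against control under every alternative of processing or libraries, though not under the study's call rule, which asks for a log2 change beyond 1.

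Isocitrate dehydrogenase has an NAD-dependent mitochondrial form, whose catalytic subunit is Idh3a (chromosome 9), and NADP-dependent forms in mitochondria (Idh2, chromosome 7) and cytosol (Idh1, chromosome 1). Idh3a held 87.2, 78.5 and 87.3 FPKM in control macrophages, 24.5, 73.0 and 25.1 with LPS, then 32.7, 41.6 and 36.2 with LPS+MIC-1. LPS libraries 1 and 3 were the lowest of all, and all LPS+MIC-1 libraries were below every control. With 9 libraries the change with LPS was -1.23 (SE 0.38, adjusted p = 0.0777), and without LPS library 2 Idh3a fell by 1.74 on the log2 scale (SE 0.10, adjusted p = 4.91e-06). LPS+MIC-1 was then above LPS by 0.55 (SE 0.10, adjusted p = 0.00215), a difference that was 0.042 with LPS library 2 and -0.17 with libraries 1 and 3 averaged.

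Idh1 followed the same pattern with a larger level, at 199, 221 and 202 FPKM in control macrophages, 66.3, 220 and 68.3 with LPS, then 72, 88.1 and 72.3 with LPS+MIC-1. LPS libraries 1 and 3 and the LPS+MIC-1 libraries lay together, far below the controls and LPS library 2. Idh1 fell by 1.42 with LPS+MIC-1 against control (SE 0.41, adjusted p = 0.0398), a call lost without any 1 control or LPS+MIC-1 library (0.0768 to 0.12) and at the same sum (0.117), and, without LPS library 2, by 1.61 with LPS (SE 0.10, adjusted p = 5.65e-06). Idh2 was lowest with LPS+MIC-1, with 93.8, 96.3 and 93.1 FPKM in controls, 67.6, 94.0 and 69.2 with LPS, then 38.0, 39.8 and 35.8 with LPS+MIC-1. It fell by 1.0 on the log2 scale with LPS+MIC-1 against LPS (SE 0.14, adjusted p = 0.00348) and by 1.31 against control (SE 0.14, adjusted p = 0.00101). The call against LPS was lost with every library at the same sum (-0.51, adjusted p = 0.295).

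In liver Idh1 was also lower with LPS, and neither Idh2 nor Idh3a passed the test with all 9 livers. Idh1 was at 189, 176 and 194 FPKM in controls, 75.2, 162 and 78.9 with LPS, then 123, 133 and 119 with LPS+MIC-1. LPS liver 2 was near the controls, and all LPS livers were below them. Idh1 fell with LPS by 0.91 on the log2 scale (SE 0.28, adjusted p = 0.0378), a call lost on leaving out any library but LPS liver 2 (adjusted p 0.0501 to 0.139). Without that liver it fell by 1.27 (adjusted p = 0.000759). With LPS+MIC-1 against control the value was -0.57 (SE 0.28), and it passed without LPS liver 2 (adjusted p = 0.00938) and at the same sum (-1.23, adjusted p = 0.00954). Idh2 was at 37.2, 11.6 and 14.3 FPKM in controls, 18.6, 18.9 and 18.1 with LPS, then 31.7, 23.3 and 31.4 with LPS+MIC-1, where every LPS+MIC-1 liver was above every LPS liver (log2 0.61, SE 0.38, adjusted p = 0.997). Control liver 1 set its spread: without it Idh2 was higher with LPS+MIC-1 than in control by 1.12 (adjusted p = 0.00519), against 0.62 (adjusted p = 0.225) with it. Idh3a was at 10.8 to 19.4 FPKM in all livers, and none of its 3 comparisons passed the test by limma (adjusted p 0.241, 0.997 and 0.0736, unadjusted 0.154, 0.34 and 0.0312). Its LPS and LPS+MIC-1 livers all lay below every control. The value for LPS+MIC-1 against control, -0.46, depended on the scaling, and Idh3a fell by 1.09 with every library at the same sum (adjusted p = 0.00639), by 0.55 by median of ratios (0.0486) and by 0.54 without control liver 1 (0.0495).

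Oxoglutarate dehydrogenase, whose E1 subunit is Ogdh (chromosome 11), makes succinyl-CoA. In macrophages Ogdh held 21.2, 21.1 and 21.1 FPKM in controls, 34.0, 23.1 and 30.4 with LPS, then 17.8, 23.6 and 18.2 with LPS+MIC-1. It was higher with LPS in all 3 libraries, by 0.43 (SE 0.17, adjusted p = 0.0826), and it rose by 0.59 without LPS library 2 (SE 0.12, adjusted p = 0.00297). LPS+MIC-1 differed from LPS by -0.54 (adjusted p = 0.0568), and fell by 0.69 without LPS library 2 (adjusted p = 0.00163). With every library at the same sum the 9-library value was -0.24 for LPS against control and -0.049 for LPS+MIC-1 against LPS. In liver Ogdh spread widely, with 13.5, 0.760 and 0.744 FPKM in controls, 22.0, 6.15 and 10.1 with LPS, then 23.0, 9.35 and 31.7 with LPS+MIC-1. Controls 2 and 3 rest on an estimated 13.1 reads each and control 1 on 416, and LPS+MIC-1 liver 2 lay below control 1. Ogdh passed the test with LPS+MIC-1 against control (log2 2.80, SE 0.95, adjusted p = 0.0473) although these groups overlapped, and the call was lost in 12 of its 15 alternatives of processing or libraries, among them the same sum (2.27, adjusted p = 0.0743), and on leaving out any library but control liver 1 (adjusted p 0.0506 to 0.15). Without control liver 1 it was also higher with LPS, by 3.22 (adjusted p = 0.0084), against 2.06 with it (SE 0.95, adjusted p = 0.117).

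Suclg2 (chromosome 6) is the GTP-specific β subunit of succinyl-CoA ligase. In macrophages it held 30.6, 27.3 and 30.5 FPKM in controls, 16.6, 25.2 and 16.7 with LPS, then 14.2, 17.7 and 14 with LPS+MIC-1, so every treated library was below every control. It fell by 0.93 with LPS+MIC-1 against control (SE 0.18, adjusted p = 0.0101; 0.0501 without control library 1 and 0.0833 at the same sum) and, without LPS library 2, by 0.80 with LPS (SE 0.11, adjusted p = 0.000316). In liver it was at 61.0, 61.5 and 73.4 FPKM in controls, 27.7, 43.9 and 31.1 with LPS, then 52.3, 38.0 and 55.4 with LPS+MIC-1. The LPS livers were all below the controls, and Suclg2 fell by 0.94 (SE 0.23, adjusted p = 0.0163), a call lost without control 3, LPS 1 or LPS 3 (0.0575 to 0.0679). The LPS+MIC-1 livers overlapped the LPS livers and were also below every control (log2 -0.44, SE 0.23, adjusted p = 0.163; -1.09 and 0.00781 at the same sum).

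Fumarase is encoded by Fh1 (chromosome 1), and the mitochondrial malate dehydrogenase by Mdh2 (chromosome 5). The Fh1 locus overlaps Kmo, which is annotated on the opposite strand, and whether counting used strand is not given in the sources used here. In macrophages Fh1 held 95.8, 89.3 and 96.0 FPKM in controls, 64.6, 85.3 and 65.8 with LPS, then 43.7, 50.9 and 42.4 with LPS+MIC-1. Each treatment lay below the one before it, and Fh1 fell by 0.64 against LPS (SE 0.14, adjusted p = 0.0167; 0.0731 and 0.0737 without LPS+MIC-1 library 1 or 3) and by 1.03 against control (SE 0.14, adjusted p = 0.00237). Against LPS the value was -0.15 with every library at the same sum (adjusted p = 0.752). In liver it was at 79.4, 63.5 and 63.9 FPKM in controls, 143, 77.2 and 147 with LPS, then 134, 103 and 130 with LPS+MIC-1. Every LPS+MIC-1 liver was above every control, and Fh1 rose by 0.82 (SE 0.27, adjusted p = 0.0439). That call was lost without any library except control 1 and LPS 2 (0.0501 to 0.13), and the value was 0.17 (adjusted p = 0.631) with every library set to the same sum. With LPS the value was 0.77 (SE 0.27, adjusted p = 0.0548), and Fh1 rose by 1.08 without LPS liver 2 (adjusted p = 0.00337) and by 0.88 without control liver 1 (0.0498).

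Mdh2 was the highest cycle member in macrophages, at 420, 428 and 411 FPKM in controls, 633, 457 and 610 with LPS, then 368, 428 and 369 with LPS+MIC-1. LPS libraries 1 and 3 were well above the controls and library 2 just above, whereas LPS+MIC-1 overlapped the controls. Mdh2 rose with LPS without library 2, by 0.57 (SE 0.08, adjusted p = 0.000325), and fell by 0.53 with LPS+MIC-1 against LPS (SE 0.15, adjusted p = 0.0409), the latter call being lost without any library except LPS 2 (0.0604 to 0.135). With all 9 libraries at the same sum the value was -0.26 for LPS against control and -0.038 for LPS+MIC-1 against LPS (adjusted p = 0.861). In liver Mdh2 was at 130, 45.9 and 37.4 FPKM in controls, 145, 107 and 154 with LPS, then 187, 132 and 189 with LPS+MIC-1. Control liver 1 was above LPS liver 2, and all LPS+MIC-1 livers were above the controls, where Mdh2 rose by 1.45 (SE 0.43, adjusted p = 0.0304; 0.0909 to 0.102 without control 2, control 3, LPS+MIC-1 1 or LPS+MIC-1 3). At the same sum the value was 0.80 (adjusted p = 0.107), and with only these groups fitted the adjusted p was 0.0558. Without control liver 1 it was also higher with LPS, by 1.68 (adjusted p = 0.00415).

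**Figure D2:**
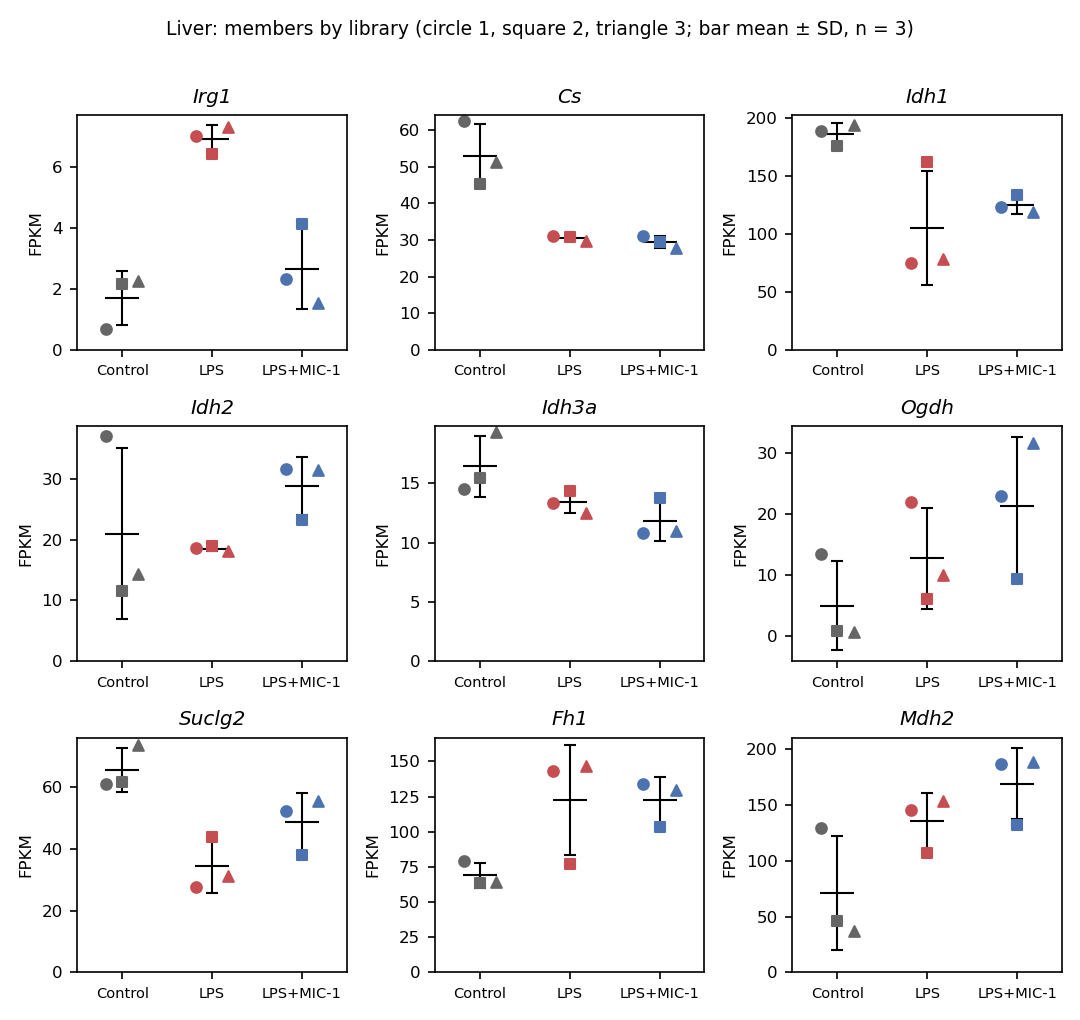
FPKM of the 9 members in each liver library by treatment, with circles, squares and triangles for libraries 1, 2 and 3 and bars for the mean ± SD (n = 3). Irg1 was highest in the LPS livers (6.41 to 7.31 FPKM), and control liver 1 stood apart from the other controls for Idh2, Ogdh and Mdh2.

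Counted together, 0 of 9 members passed the test for LPS against control in macrophages by limma, where 0% of all genes did, while 4928 genes had an unadjusted p under 0.05. The ranges of 5 members did not overlap, against 33.3% of all genes. Without LPS library 2 there were 3 higher (Irg1, Ogdh, Mdh2) and 5 lower (Idh1, Idh2, Idh3a, Suclg2, Fh1), among 75.2% of all genes, 36.9% higher and 38.2% lower. The median of the members was -0.31 with 9 libraries, beside -0.025 over all genes tested. When LPS+MIC-1 was set against LPS, 5 of 9 passed, Irg1 higher and Cs, Idh2, Fh1 and Mdh2 lower, among 21.6% of all genes (10.2% higher and 11.4% lower, or 12.4% and 3.57% with every library at the same sum). The ranges of 5 members did not overlap, against 36.1%, and the median was -0.43 beside -0.0077. Without LPS library 2 the count was 2 higher and 5 lower, among 68% (34% higher and 34.1% lower).

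Set against control, the LPS+MIC-1 macrophages had 6 of 9 members past the test, Irg1 higher and Cs, Idh1, Idh2, Suclg2 and Fh1 lower, among 24.8% (11.8% higher and 13% lower). The ranges of 7 did not overlap, against 66.4%, and the median log2 fold change of the members was -0.93 beside -0.036 over all genes tested. Without LPS library 2 Idh3a joined the lower members, with 1 higher and 6 lower among 60.3% (28.1% higher and 32.2% lower). With libraries 1 and 3 averaged as 1 sample, all the members' calls were lost against LPS (adjusted p 0.198 to 0.508) and against control (0.125 to 0.356). By the study's call rule, an adjusted p below 0.01 with a log2 change beyond 1, 0 members passed for LPS against control (0% of all genes), 0 for LPS+MIC-1 against LPS (3.87%) and 3 for LPS+MIC-1 against control (5.59%).

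In liver 4 of 9 members passed for LPS against control, Irg1 higher and Cs, Idh1 and Suclg2 lower, among 34.7% of all genes (19.2% higher and 15.5% lower, or 11% and 24.4% with every library at the same sum). The ranges of 5 did not overlap, against 45%, and the median was 0.013 beside 0.15. For LPS+MIC-1 against LPS 0 of 9 passed by limma, as did 0% of all genes, with 364 genes at an unadjusted p under 0.05. The ranges of Irg1 and Idh2 did not overlap there, against 9.75% of all genes, and the median was 0.32 beside -0.0093. For LPS+MIC-1 against control 4 of 9 passed, Ogdh, Fh1 and Mdh2 higher and Cs lower, among 36.4% (20.1% higher and 16.3% lower, or 7.22% and 33.9% at the same sum), with 6 ranges that did not overlap against 54.6%. At the same sum Ogdh, Fh1 and Mdh2 lost their calls and Idh1, Idh3a and Suclg2 passed as lower, so all 4 members called there were lower. The median was 0.54 beside 0.15. The shares of members called in liver were near these backgrounds. By the study's call rule, on the unadjusted p in liver, 2, 1 and 2 members passed in these comparisons, among 28.4%, 0.986% and 28.9% of all genes.

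**Figure D3:**
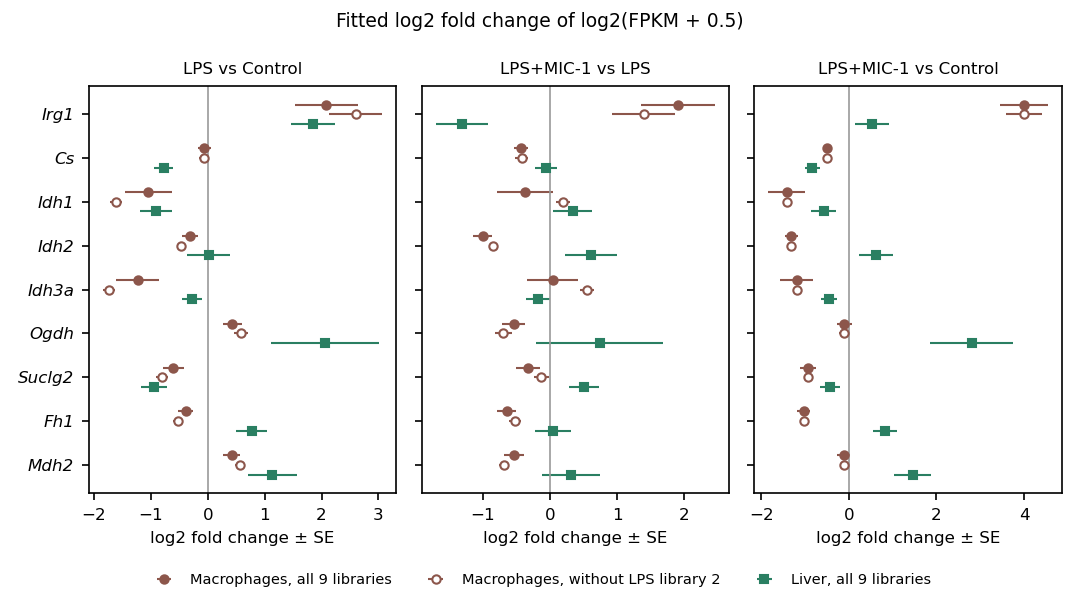
Fitted log2 fold change of log2(FPKM + 0.5) with its SE for the 9 members in 3 comparisons, with filled circles for macrophages (9 libraries), open circles for macrophages without LPS library 2 and squares for liver. Irg1 lies at 1.91 in macrophages and -1.31 in liver for LPS+MIC-1 against LPS, and Fh1 on opposite sides of 0 for LPS+MIC-1 against control (-1.03 and 0.82).

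The other enzymes of the cycle were a list of 10 genes, all tested in both tissues. In macrophages 6 of the 10 fell with LPS+MIC-1 against LPS and 0 rose, against 11.4% of all genes lower and 10.2% higher, with a list median of -0.45. Largest were Idh3g (-1.35, SE 0.20, adjusted p = 0.00388), Idh3b (-0.94), the succinate dehydrogenase membrane anchor Sdhd (-0.90) and its iron-sulphur subunit Sdhb (-0.70). Without LPS library 2, 7 of the 10 fell and 0 rose, against 34.1% of all genes lower and 34% higher. The calls depended on the scaling. With every library at the same sum, 4 genes of all the lists around the cycle were called, 1 higher and 3 lower. Of all genes, 12.4% were then higher and 3.57% lower. With libraries 1 and 3 averaged, 0 listed genes were called. Idh3b and Idh3g are subunits of the same enzyme as Idh3a, and in LPS libraries 1 and 3 Idh3b was above the controls where Idh3a was below: Idh3b held 130, 130 and 126 FPKM in controls and 227, 128 and 233 with LPS.

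Ratios within a library do not depend on its scaling, and those given here were chosen after the values were seen. In macrophages Idh3b to Idh3a was 1.49, 1.65 and 1.44 in controls and 9.26, 1.75 and 9.27 with LPS. LPS libraries 1 and 3 were far above the controls, and LPS+MIC-1, at 2.85, 2.54 and 2.68, lay between. Mdh2 to Fh1 in macrophages was 4.29 to 4.79 in controls, 9.80, 5.36 and 9.27 with LPS, then 8.41 to 8.71 with LPS+MIC-1. LPS libraries 1 and 3 lay above every LPS+MIC-1 library, and all treated libraries lay above the controls.

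**Figure D4:**
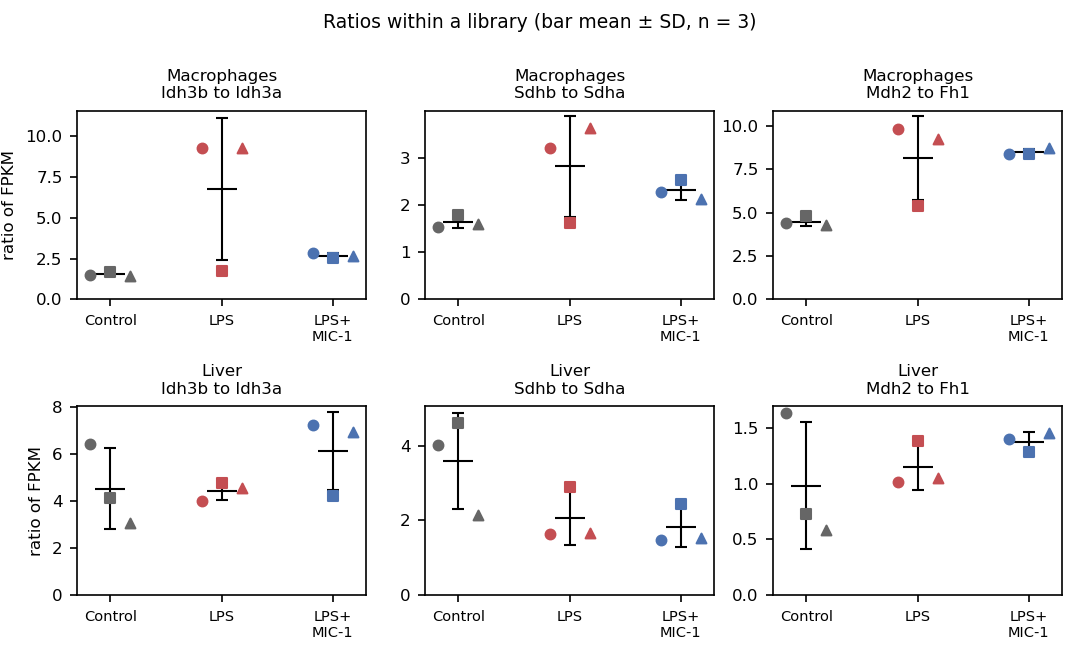
Ratio of FPKM between pairs of genes in each library, for macrophages (upper row) and liver (lower row), with bars for the mean ± SD (n = 3). In macrophages Idh3b to Idh3a was 9.26 and 9.27 in LPS libraries 1 and 3, against 1.44 to 1.65 in controls.

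Other genes around the cycle were grouped in 5 further lists. Among the genes of cytosolic or alternative counterparts, Me1, the cytosolic NADP malic enzyme, rose with LPS+MIC-1 against LPS in macrophages (log2 0.69, SE 0.17, adjusted p = 0.0249) and Mdh1 fell (-0.57, SE 0.14, adjusted p = 0.0288), with 2 of 4 tested genes past the test. Of pyruvate entry 1 of 11 passed, Brp44 (a subunit of the mitochondrial pyruvate carrier, -1.10), of glutamate entry 1 of 4, Glud1 (-0.51), and of citrate use and carriers 0 of 5. Of all genes 21.6% passed. Without LPS library 2, pyruvate entry had 3 higher and 4 lower, glutamate entry 1 and 2, and citrate use and carriers 2 and 2. The counterparts then had 2 higher and 1 lower, where 34% of all genes were higher and 34.1% lower. Clybl, which clears the citramalyl-CoA formed from itaconate, fell with LPS+MIC-1 against control (log2 -1.13, SE 0.23, adjusted p = 0.0123), from 7.82 to 9.45 FPKM in controls to 3.28 to 4.07.

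In liver the list of other cycle enzymes gave 2 of 10 higher with LPS against control, Dld (0.92) and Dlst (0.58), and 0 lower, against 19.2% of all genes higher and 15.5% lower. Of citrate use and carriers Acly, which cleaves citrate for lipid synthesis, fell (-1.55, SE 0.24, adjusted p = 0.0037) with the dicarboxylate carrier Slc25a10 (-1.98, SE 0.43, adjusted p = 0.0111), and Slc25a11 rose (0.64). Of pyruvate entry 3 of 12 fell (Pdhb, Dlat and Pdp2) and 1 rose, Pcx, the anaplerotic pyruvate carboxylase (1.14, SE 0.27, adjusted p = 0.0148). Among counterparts Aco1, Me1 and Me3 fell and Me2 rose, of 5 tested. None of these lists had a gene past the test for LPS+MIC-1 against LPS by limma, where 0% of all genes passed.

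**Figure D5:**
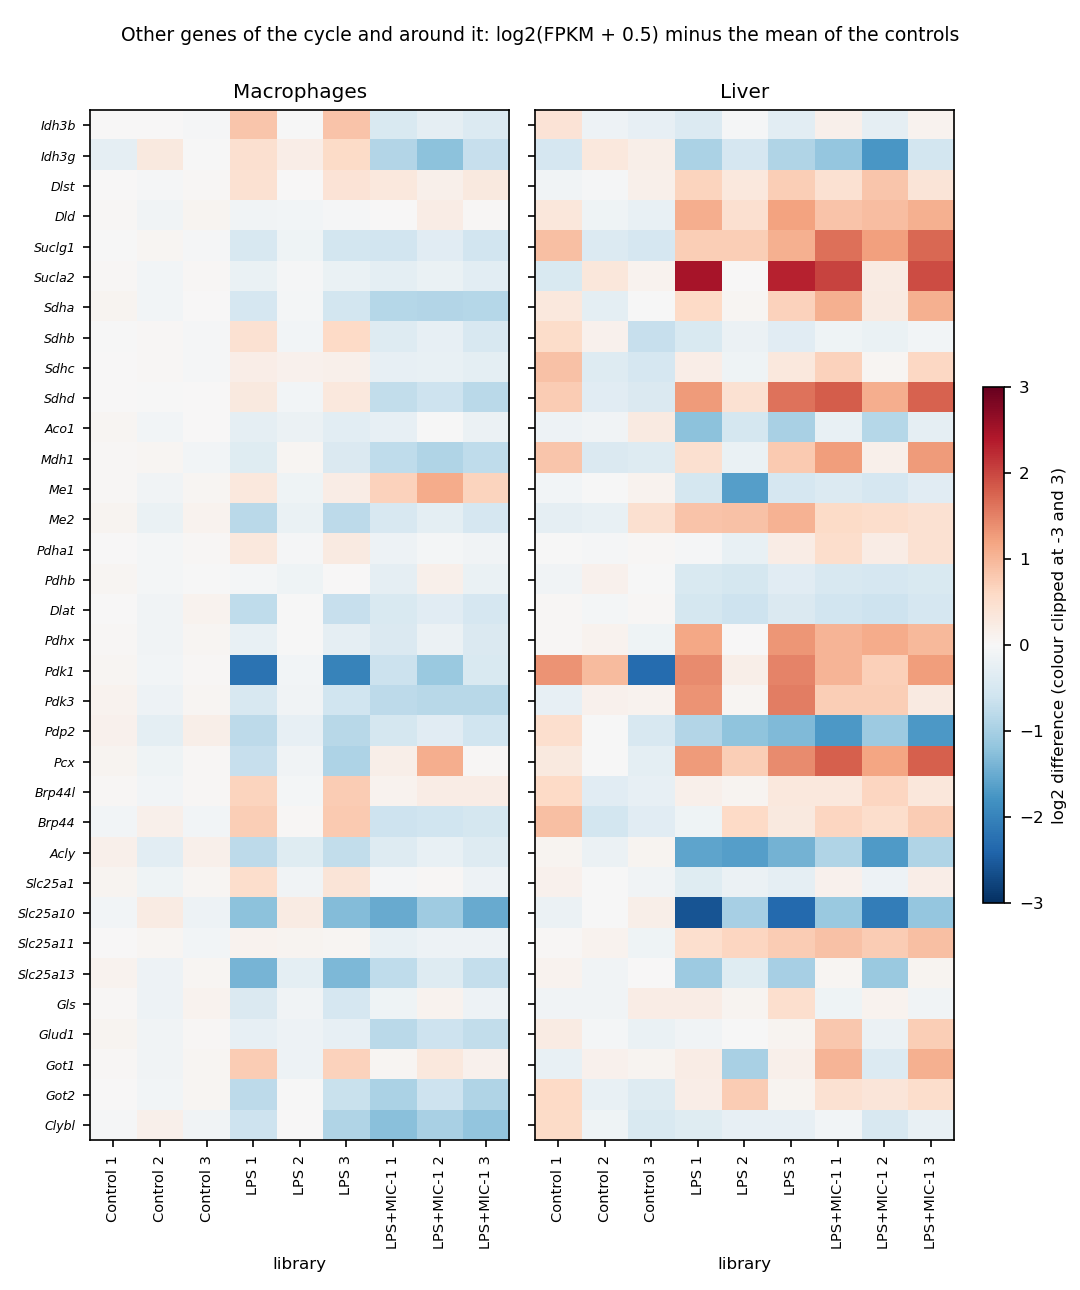
Log2(FPKM + 0.5) minus the mean of the 3 controls for the 34 listed genes around the cycle that were tested in both tissues, with 1 column per library and colour clipped at -3 and 3. Macrophage LPS library 2 has the colour of the controls, and Acly and Slc25a10 were lower with LPS in all 3 livers.

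The genes nearest to Irg1 in pattern over the 9 macrophage libraries, by the root mean square difference of centred log2(FPKM + 0.5), were A430084P05Rik (0.31), Phlda1 (0.34), 2310016C08Rik (0.40), Gpr18 (0.42) and Calcb (0.46), where Irg1 itself varied by 1.75. Phlda1 held 10.8, 19.5 and 10.7 FPKM in controls, 53.5, 20.1 and 53.1 with LPS, then 231, 160 and 218 with LPS+MIC-1. In liver they were Nfkbiz (0.35), Casp4 (0.38), Slc2a6 (0.38), Jmjd7 (0.38) and Darc (0.39), where Irg1 varied by 0.89. Nfkbiz held 3.53 to 6.20 FPKM in controls, 9.87 to 13.9 with LPS, then 5.73 to 11.6 with LPS+MIC-1.

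By level, the control order in macrophages began with Mdh2 (420 ± 8.15, SD, n = 3), Idh1 and Cs, whose ranges did not overlap with their neighbours above, and ended with Suclg2 and Ogdh. Cs and Irg1, Irg1 and Idh2, and Idh2 and Fh1 did not separate. In control liver Idh1 (186 ± 9.35, SD, n = 3) was alone at the top. Mdh2 and Fh1, Fh1 and Suclg2, and Suclg2 and Cs did not separate, while Cs lay above Idh2 without overlap. Irg1 had the lowest mean, but its range overlapped that of Ogdh, which was below it in controls 2 and 3.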

How the data were processed

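RNA-seq of 18 libraries was used. The authors quantified transcripts by pseudoalignment (Kallisto 0.45.0, mm9 RefSeq), took gene totals through tximport, and deposited the FPKM that DESeq2 1.20.0 gives after scaling by size factors. The study's own figures used fewer LPS than control libraries in macrophages, and all are used here. The 6 deposited tables of comparisons hold mean normalized counts, log2 fold changes, standard errors, Wald statistics and p-values and were not used. Each column matched a treatment by its name, without a replicate number.

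Each table was tested alone, since the 2 were normalized separately: log2(FPKM + 0.5) of genes with mean FPKM above 1, limma 3.58.1 in R 4.3.3 (lmFit, contrasts, eBayes with trend), all 3 treatments in 1 fit, Benjamini-Hochberg adjustment over all genes tested, call at adjusted p below 0.05. Fold changes are on that scale and understate the change of low genes. The pipeline was tested on simulated data. For macrophages the simulated spread was taken without LPS library 2, so the wider spread with that library was not simulated. Members and lists were chosen with earlier results of these data known. Named are all members, up to 4 called genes of each list with the largest change, the 5 genes nearest to Irg1, and marker genes of other cells. A listed gene is not reported here. Depth was estimated from steps between low values, for an assumed fragment length of 200 bases. Alternatives covered the pseudocount, filter, scaling, groups fitted, libraries left out and the study's call rule.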

Additional observations from a re-analysis of the deposited data

Results flagged for a closer look

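The genes Irg1, Idh2 and Fh1 differed in opposite directions in the tissues, with groups that did not overlap in either. For LPS+MIC-1 against LPS, Irg1 had a log2 difference of 1.91 in macrophages and -1.31 in liver. For the same comparison Idh2 had -1.0 in macrophages and 0.61 in liver. Neither gene passed the test by limma in liver (adjusted p = 0.997). Groups did not overlap in that comparison for 36.1% of all genes in macrophages and 9.75% in liver. For LPS+MIC-1 against control, Fh1 had -1.03 in macrophages and 0.82 in liver, the latter 0.17 with every library at the same sum. Here 66.4% and 54.6% of all genes had groups that did not overlap. The share of all genes that turn between tissues in this way is not given. The difference between tissues was not tested, as the tables were normalized separately. Groups of 3 libraries are too small for a formal test of single outlying libraries, and those that stood apart are described above.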

How the results depend on the processing

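No paired analysis was possible because the columns carry a treatment and no replicate number. Of the alternatives for LPS+MIC-1 against LPS in macrophages (5 members and 10 listed genes), the members called were 3 with no filter, 1 with only the groups compared, 1 with every library at the same sum, and 0 with libraries 1 and 3 averaged or by the study's call rule, and listed genes called were 2 with only the groups compared, 4 with the same sum, 0 with averaging and 2 by the call rule. Against control (6 members and 11 listed genes) members were 3 with the same sum, 0 with averaging and 3 by the call rule, and listed genes were 23 with only the groups compared, 5 with the same sum, 0 with averaging and 0 by the call rule. In liver, LPS against control (4 and 13) gave 8 listed genes with only the groups compared, and 2 members and 6 listed genes by the call rule, LPS+MIC-1 against LPS gave 1 member by the call rule, and LPS+MIC-1 against control gave 2 members with no filter and 2 by the call rule.

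Leaving out 1 library in turn, members called in macrophages ranged from 0 to 8 (LPS against control), 1 to 7 (LPS+MIC-1 against LPS) and 3 to 7 (against control), and listed genes from 0 to 29, 3 to 25 and 7 to 25. The upper ends came without LPS library 2 (for members against control, also without LPS library 1 or 3). Member counts fell by over 1.5 times without library 1 or 3 of any treatment (LPS+MIC-1 against LPS) and without control 1 (against control). In liver members ranged from 2 to 6 and 1 to 6 (LPS and LPS+MIC-1 against control), and listed genes from 3 to 19 and 6 to 18. Member counts fell by over 1.5 times without control 3, LPS 1 or LPS 3 (LPS against control), and without any library except control 1 and LPS 2 (LPS+MIC-1 against control). Directions that turned over these settings were Idh3a (-0.22 to 0.55) and Idh1 (-0.67 to 0.19) for LPS+MIC-1 against LPS in macrophages, Idh2 with LPS in liver (-0.31 to 0.51) and Fh1 for LPS+MIC-1 against LPS in liver (-0.26 to 0.21).

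With every library at the same sum, the median log2 fold change of all macrophage genes moved from -0.025 to -0.65 with LPS and from -0.0077 to 0.44 for LPS+MIC-1 against LPS. There Ogdh (-0.24) and Mdh2 (-0.26) turned with LPS, and Cs (0.064), Idh1 (0.12) and Suclg2 (0.16) turned for LPS+MIC-1 against LPS. In liver Idh2 turned with LPS (-0.34; -0.075 by median of ratios) and for LPS+MIC-1 against control (-0.017), as did Fh1 for LPS+MIC-1 against LPS (-0.24). Idh3a turned with libraries 1 and 3 averaged (-0.17). The cause was not tested. Irg1 with LPS in liver and Cs in both liver comparisons with control kept their calls in every alternative of processing or libraries, although Cs did not pass the study's call rule. For LPS+MIC-1 against control in liver the count of members stayed at 4 at the same sum while 3 of them changed, and low depth of control livers 2 and 3 limits Irg1 and Ogdh there.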
